A study of Mus musculus with 60 samples.

Results

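In the hippocampus of sedentary Emx1-NuTRAP mice, H4K8ac (acetylated lysine 8 of histone H4) and H3K27me3 (trimethylated lysine 27 of histone H3) were mapped by CUT&RUN in separate aliquots of tagged nuclei, and the genes that carried each mark are described here. A gene was a member when the deposited peak list of either mark, prepared by simultaneous INTACT and TRAP (SIT), assigned it at least 1 peak by its MGI symbol. This gave 11188 genes, of 16994 that were assigned a peak in any of the 12 lists of the series. H4K8ac alone was assigned to 7358 of them (65.8%), H3K27me3 alone to 2519 (22.5%) and both marks to 1311 (11.7%). The genes with both marks made up 15.1% of the H4K8ac genes and 34.2% of the H3K27me3 genes.

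All mice were male and carried the Emx1-NuTRAP transgenes, in which Cre expressed from the Emx1 locus, active in the lineage of forebrain excitatory neurons and part of the glia, switches on a tag on the nuclear envelope and a tag on the ribosome. SIT takes nuclei for CUT&RUN and ribosome-bound RNA from a single homogenate of both hippocampi, whereas in the separate isolations the left or the right hippocampus was used for nuclei. Sedentary mice stayed in standard cages without a running wheel from postnatal day 21 to 41, and exercised mice had voluntary wheel running over that time. The labels give 4 sedentary SIT samples for each mark, but the study's own text names fewer sedentary SIT mice, and each list is a single file with no column for a mouse. The lists hold positions without signal or depth, so the spread between mice is unknown, peaks and genes are not replicates, and a 95% Wilson interval below covers counting error only. The nuclei of a mouse were divided between the antibodies with a larger aliquot for H4K8ac than for H3K27me3, so the mark and the number of nuclei cannot be told apart.

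Histone acetylation, which histone acetyltransferases write and deacetylases erase, lies over active promoters and enhancers, and H4K8ac in the hippocampus has been studied in memory formation. H3K27me3 is written by Polycomb repressive complex 2 and marks genes held silent, above all the regulators of development that belong to other lineages, over domains that can span a whole gene cluster. At CpG-rich promoters the marks can occur in the same tissue sample on different cells, alleles or nucleosomes, which a peak list cannot tell apart.

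To show the base composition under the peaks, 11 promoters that lay whole inside a peak are printed here, 6 chosen by the width of the peak and 5 because peaks of both marks covered them. Each is the 250 bases before the start site, from RefSeq on GRCm38.p6 (the coordinates of mm10), written 5′ to 3′ on the gene's strand in lower case with every CG dinucleotide in capitals. The first 3 lay in H4K8ac peaks. Neurod1 (a proneural transcription factor, chr2:79456637-79456886, minus strand) lay in a peak of 5378 bp, Kcnk10 (a TREK family potassium channel, chr12:98575128-98575377, minus strand) in one of 4974 bp, and a promoter of Bdnf (brain-derived neurotrophic factor, chr2:109674450-109674699, plus strand) in one of 4769 bp.
Neurod1: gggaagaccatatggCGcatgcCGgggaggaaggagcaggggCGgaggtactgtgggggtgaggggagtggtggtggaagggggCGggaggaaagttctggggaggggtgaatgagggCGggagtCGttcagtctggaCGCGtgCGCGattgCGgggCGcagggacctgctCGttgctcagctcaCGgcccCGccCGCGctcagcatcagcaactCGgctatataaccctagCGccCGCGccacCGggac
Kcnk10: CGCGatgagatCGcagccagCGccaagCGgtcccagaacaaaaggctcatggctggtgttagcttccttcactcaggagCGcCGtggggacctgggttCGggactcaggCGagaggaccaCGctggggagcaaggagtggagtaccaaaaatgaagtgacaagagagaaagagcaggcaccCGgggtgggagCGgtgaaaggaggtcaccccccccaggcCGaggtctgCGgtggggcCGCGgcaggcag
Bdnf: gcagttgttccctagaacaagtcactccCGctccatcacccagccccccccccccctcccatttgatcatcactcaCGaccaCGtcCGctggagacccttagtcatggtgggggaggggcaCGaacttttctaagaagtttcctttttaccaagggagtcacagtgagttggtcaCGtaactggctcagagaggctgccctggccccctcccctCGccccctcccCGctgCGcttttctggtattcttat
These windows held 22, 16 and 9 CG dinucleotides, respectively.

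The next 3 lay in the widest H3K27me3 domains that covered a promoter of the gene lists, and each domain ran over most of a Hox cluster, the homeobox genes that pattern the body axis and the hindbrain. Hoxc4 (chr15:103034145-103034394, plus strand) lay in a domain of 193722 bp whose peak was assigned to Hotair, Hoxa10 (chr6:52234940-52235189, minus strand) in one of 160066 bp assigned to Gm15050, and Hoxb1 (chr11:96365508-96365757, plus strand) in one of 158177 bp assigned to Hoxb3os.
Hoxc4: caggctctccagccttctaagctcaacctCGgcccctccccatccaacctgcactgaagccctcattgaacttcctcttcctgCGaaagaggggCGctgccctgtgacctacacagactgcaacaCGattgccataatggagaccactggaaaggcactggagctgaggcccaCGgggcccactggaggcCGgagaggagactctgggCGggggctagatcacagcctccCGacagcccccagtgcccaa
Hoxa10: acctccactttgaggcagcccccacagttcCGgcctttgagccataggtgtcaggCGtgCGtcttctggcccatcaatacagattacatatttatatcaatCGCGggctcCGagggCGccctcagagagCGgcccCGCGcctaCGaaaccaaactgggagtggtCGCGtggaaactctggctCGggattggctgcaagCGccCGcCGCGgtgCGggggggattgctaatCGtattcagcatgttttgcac
Hoxb1: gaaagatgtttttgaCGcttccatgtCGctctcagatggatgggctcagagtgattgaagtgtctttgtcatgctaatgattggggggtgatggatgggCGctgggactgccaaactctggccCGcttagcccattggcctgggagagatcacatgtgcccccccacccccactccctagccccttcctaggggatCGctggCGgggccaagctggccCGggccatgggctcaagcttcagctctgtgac
They held 8, 20 and 7 CG dinucleotides.

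Peaks of both marks covered 7 windows, which belonged to 5 genes. They were Pld5 (phospholipase D family member, chr1:176213943-176214192, minus strand), Cast (calpastatin, the inhibitor of calpain, chr13:74808761-74809010, minus strand), Pdyn (prodynorphin, the opioid peptide precursor of granule cells, chr2:129699939-129700188, minus strand), Kcnc2 (the Kv3.2 potassium channel, chr10:112270871-112271120, plus strand) and Rhoj (a small GTPase, chr12:75308063-75308312, plus strand).
Pld5: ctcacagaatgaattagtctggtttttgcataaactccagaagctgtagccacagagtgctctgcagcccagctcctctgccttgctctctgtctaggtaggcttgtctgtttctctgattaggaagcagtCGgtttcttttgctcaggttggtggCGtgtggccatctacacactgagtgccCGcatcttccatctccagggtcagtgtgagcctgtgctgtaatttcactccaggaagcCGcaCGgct
Cast: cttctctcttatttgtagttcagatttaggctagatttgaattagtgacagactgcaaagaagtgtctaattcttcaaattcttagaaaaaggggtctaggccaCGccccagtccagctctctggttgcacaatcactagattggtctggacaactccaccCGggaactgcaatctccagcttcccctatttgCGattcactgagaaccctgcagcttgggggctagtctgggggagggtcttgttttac
Pdyn: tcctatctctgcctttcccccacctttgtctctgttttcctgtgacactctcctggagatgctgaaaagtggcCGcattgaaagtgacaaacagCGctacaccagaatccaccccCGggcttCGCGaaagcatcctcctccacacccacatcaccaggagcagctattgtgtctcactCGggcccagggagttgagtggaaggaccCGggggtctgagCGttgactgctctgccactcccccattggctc
Kcnc2: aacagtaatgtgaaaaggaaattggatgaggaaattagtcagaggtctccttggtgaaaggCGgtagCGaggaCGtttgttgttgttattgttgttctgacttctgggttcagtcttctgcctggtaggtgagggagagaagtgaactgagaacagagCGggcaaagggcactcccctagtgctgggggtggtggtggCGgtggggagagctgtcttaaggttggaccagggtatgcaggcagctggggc
Rhoj: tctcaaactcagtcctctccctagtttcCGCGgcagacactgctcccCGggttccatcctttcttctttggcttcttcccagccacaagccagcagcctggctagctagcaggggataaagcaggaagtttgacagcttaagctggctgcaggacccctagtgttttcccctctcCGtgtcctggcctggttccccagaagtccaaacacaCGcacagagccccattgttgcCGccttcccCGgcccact
These held 5, 3, 8, 5 and 7 CG dinucleotides. In each the H4K8ac peak was the narrower, from 1009 bp at Pld5 to 2435 bp at Kcnc2, while the H3K27me3 peak measured 9330 bp at Pld5, 4715 bp at Cast, 3584 bp at Pdyn, 3414 bp at Kcnc2 and 2883 bp at Rhoj.

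Over all 32817 RefSeq promoter windows of 300 bases (250 before and 50 after the start site), 1941 lay whole inside H4K8ac peaks alone and 2237 inside H3K27me3 peaks alone. The observed over expected CpG ratio was 0.567 ± 0.274 (SD over windows) in the H4K8ac windows and 0.481 ± 0.272 in the H3K27me3 windows, against 0.461 over all windows. A ratio above 0.6 was found in 46.3% of the H4K8ac windows, 35.5% of the H3K27me3 windows and 0 of the 7 windows with both. Windows were searched on both strands for the letters of 4 motifs. The GC box GGGCGG was present in 42.8% of the H4K8ac and 40.5% of the H3K27me3 windows (35.6% of all windows). The E-box CACGTG was present in 7.99% and 6.66% (7.15% of all), the cAMP response element TGACGTCA in 2.58% and 1.70% (1.79% of all) and the TATA box letters TATAAA in 10.2% and 12.5% (13.6% of all). None of the 4 was found in the 7 windows inside peaks of both marks. Of the printed sequences, Neurod1 and Hoxc4 hold a GC box and Hoxa10 the TATA letters.

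H4K8ac was called as many narrow peaks and H3K27me3 as fewer wide ones. The H4K8ac list held 30358 peaks that covered 46.4 Mb, with a median width of 1265 bp (interquartile range 1036 to 1758), and the H3K27me3 list held 10279 peaks that covered 72.3 Mb, with a median of 4375 bp (3221 to 7261). A width of 10 kb or more was reached by 19 H4K8ac peaks (0.0626%) and by 1604 H3K27me3 peaks (15.6%). The widest H4K8ac peak measured 18946 bp and the widest H3K27me3 peak 193722 bp. The width of an H4K8ac peak varied little with its position, with medians of 1233 to 1461 bp over the annotation classes, whereas H3K27me3 peaks had medians of 5486 bp at promoters, 5781 and 5428 bp at the few peaks in 5′ and 3′ UTRs, 3956 bp in introns and 3943 bp in distal intergenic sequence. Across the 6 pairs of lists of the same condition and isolation, H4K8ac peaks were narrower in 6 of 6 pairs, by a mean of -1.03 ± 0.41 (SD) on the log2 scale. The exact two-sided sign-flip permutation test gave p = 0.03125, the smallest that 6 pairs allow, and 0.0521 after Benjamini-Hochberg adjustment over 5 tests, which does not pass 0.05. The sedentary SIT pair had the largest difference of the 6, at -1.79. The study left out several H4K8ac libraries of exercised mice, most of them from the separate isolations, for a high false discovery rate. The exercised H4K8ac lists held 12168 to 38136 peaks. Over the 3 sedentary pairs alone the mean was -1.24, where no p can be under 0.25.

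The classes of the peaks differed as well. Promoters, taken by the authors' annotation as within 3 kb of a start site, held 19.3% of the H4K8ac peaks (18.8 to 19.7) and 25.4% of the H3K27me3 peaks (24.6 to 26.3). Introns held 40.1% of H4K8ac and 18.5% of H3K27me3 peaks, exons 6.74% and 11.8%, and distal intergenic sequence 31.0% and 41.3%. First introns alone held 12.2% and 7.63%. The start site of the assigned transcript lay within the peak itself for 8.90% of the H4K8ac and 18.9% of the H3K27me3 peaks. Those peaks had median widths of 1521 and 6079 bp. A similar share of each list, 22.1% and 22.8%, lay over 100 kb from the start site of the assigned transcript. The promoter share stood apart from the other lists: the difference, H4K8ac minus H3K27me3, was -6.18 percentage points here, whereas in each of the other 5 pairs the share was higher for H4K8ac, by 2.80 to 6.29 points. The mean difference over the 6 pairs was 2.74 ± 4.60 points (SD), and the exact permutation test gave p = 0.21875, adjusted p = 0.273. Counted in covered bases, promoters held 19.99% of the H4K8ac and 35.1% of the H3K27me3 sequence, and the difference was then below 0 in 6 of 6 pairs with a mean of -7.10 points (exact p = 0.03125, adjusted p = 0.0391).

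**Figure D1:**
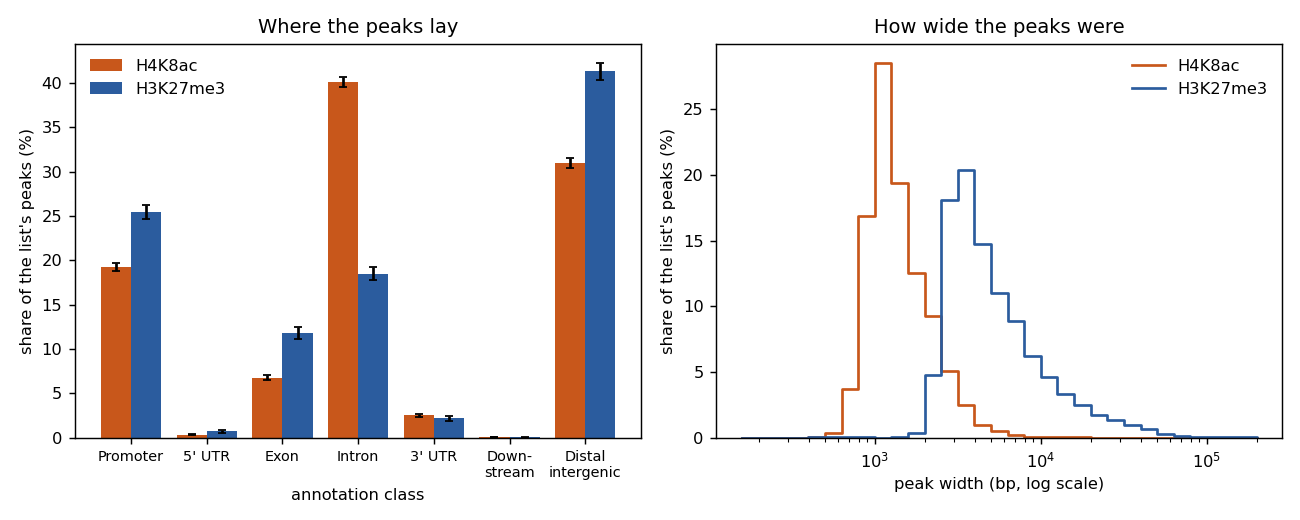
Left, share of peaks (percent) in each annotation class for the sedentary SIT H4K8ac and H3K27me3 lists, with 95% Wilson intervals that cover counting error only. Right, distribution of peak width (bp, log axis) in both lists. Introns held 40.1% of the H4K8ac peaks, promoters and distal sequence a larger share of the H3K27me3 peaks, and the median widths were 1265 and 4375 bp.

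Genes were listed with a single peak or with many. Of the 8669 genes with H4K8ac, 4061 had 1 peak and 4608 (53.2%) had 2 or more, with 1678 (19.4%) at 5 or more and 646 at 10 or more. Of the 3830 genes with H3K27me3, 2167 had 1 peak and 1663 (43.4%) had 2 or more, with 516 (13.5%) at 5 or more and 187 at 10 or more. The mean was 3.49 H4K8ac peaks and 2.68 H3K27me3 peaks per listed gene. The 9.73 point difference in the share with 2 or more peaks was shared in direction by the sedentary left separate pair (5.63 points) but not by the other 4 pairs, which lay below 0. Over the 6 pairs it had a mean of -0.955 ± 7.06 points (SD, exact permutation p = 0.78125, adjusted p = 0.78125). With as many peaks kept in each list, by width, the sedentary SIT difference was -2.38 points.

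The 5 protein-coding genes with the most H4K8ac peaks included regulators of neuronal RNA and transcription and proteins of synapses. Celf2, an RNA-binding regulator of splicing, had 94 peaks over 149898 bp in and around its 970 kb span. Magi2, a synaptic scaffold, had 61 peaks over 84346 bp, Ptprd, a receptor phosphatase that organises synapses, had 61 over 83490 bp, Tcf4, a basic helix-loop-helix factor, had 60 over 176019 bp, and Anks1b, a postsynaptic protein, had 59 over 112560 bp. None of these 5 was assigned an H3K27me3 peak. The widest single H4K8ac peaks of protein-coding genes belonged to Tcf4 (17422 bp), Ccnh (cyclin H, 16396 bp), Prkd1 (protein kinase D1, 15027 bp), Nfix (a nuclear factor I protein, 14896 bp) and Bcl11a (a zinc finger repressor, 14722 bp). The Ccnh peak was distal intergenic, as were 16 of the gene's 17 H4K8ac peaks. The Prkd1 peak, classed as exonic, ran from 50108884 to 50123910 on chromosome 12. It lay outside the annotated span of Prkd1, from 50341231 to 50649098.

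The 5 with the most H3K27me3 peaks included adhesion genes and transcription factor genes. Adgrl2, a latrophilin adhesion receptor, had 53 peaks over 318878 bp, Sox6, an SRY-box factor of interneuron and oligodendrocyte lineages, had 51 over 440155 bp, and Ptprm, a receptor phosphatase of cell adhesion, had 44 over 487646 bp. Zfhx3, a zinc finger homeobox factor, had 43 over 334949 bp, and Wwox, a WW-domain oxidoreductase, had 40 over 587649 bp. Adgrl2 and Wwox also had H4K8ac, with 9 peaks over 11475 bp and 1 peak of 876 bp. The widest single H3K27me3 peaks of protein-coding genes were those of Ebf1 (146501 bp), Plcb4 (phospholipase C beta 4, 126860 bp), Pax3 (117887 bp), Ebf2 (95686 bp) and Cux1 (93816 bp). Ebf1, Ebf2, Pax3 and Cux1 encode transcription factors.

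Genes with H4K8ac alone were longer than genes with H3K27me3 alone, and genes with both marks were the longest. The annotated span had a median of 29.9 kb (interquartile range 10.4 to 81.5) for H4K8ac alone, 17.0 kb (6.29 to 41.3) for H3K27me3 alone and 48.8 kb (14.7 to 131.8) for both. Among protein-coding genes the medians were 36.4, 18.7 and 60.2 kb, against 17.4 kb over all 21938 annotated protein-coding genes and 11.4 kb for those with neither mark. Spans over 100 kb were found for 20.7%, 8.62% and 31.8% of the H4K8ac-only, H3K27me3-only and both genes. The ratio of H4K8ac-only to H3K27me3-only median spans was above 1 in 6 of 6 list pairs, with a mean of 0.77 ± 0.04 on the log2 scale (SD, range 0.70 to 0.81, exact permutation p = 0.03125, the smallest possible, adjusted p = 0.0521).

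Of all annotated protein-coding genes, 28.3% (27.7 to 28.9) had H4K8ac alone, 9.71% (9.32 to 10.1) had H3K27me3 alone, 5.06% (4.78 to 5.36) had both and 56.9% (56.2 to 57.6) had neither. When these genes were split by span into 10 groups of equal size, the H4K8ac-only share went from 10.4% in the shortest to 58.6% in the longest group, and the share with both from 1.73% to 16.5%. The H3K27me3-only share stayed between 6.65% and 11.1% over the groups, with 8.03% in the longest. Of the genes with any H3K27me3, 67.2% in the longest group also had H4K8ac. A long gene offers more bases to a peak and more peaks to the nearest-gene assignment, and the part of this in the shares was not tested.

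**Figure D2:**
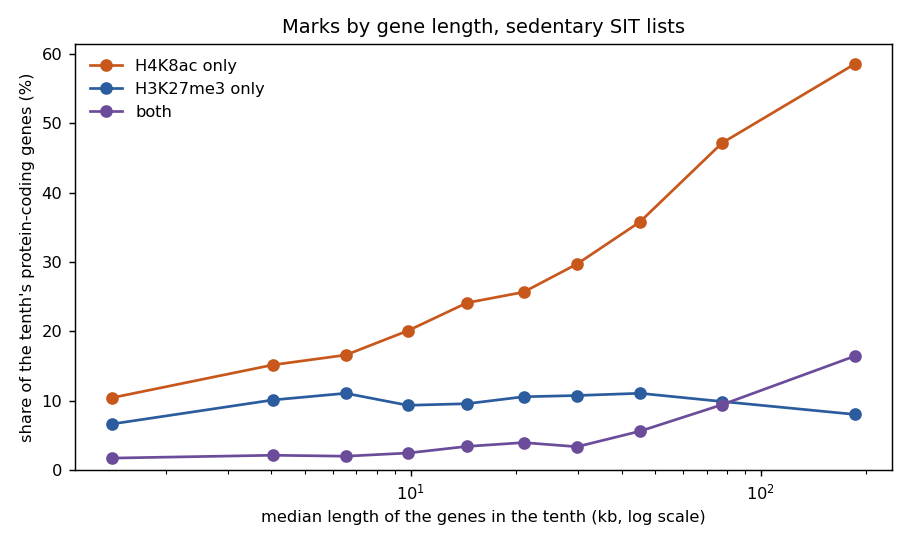
Share of annotated protein-coding genes (percent) with H4K8ac alone, H3K27me3 alone or both, for 10 equal groups of genes by annotated span, from shortest to longest. The H4K8ac-only line ends at 58.6% and the line for both at 16.5%, while H3K27me3 alone lies between 6.65% and 11.1% throughout.

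The genes with a single mark and with both also differed in where their peaks lay. A promoter peak of H4K8ac was assigned to 53.6% of the H4K8ac-only genes and to 38.1% of the genes with both. A promoter peak of H3K27me3 was assigned to 66.4% of the H3K27me3-only genes and to 43.1% of the genes with both. Over all protein-coding genes, 18.1% had a promoter peak of H4K8ac and 9.07% one of H3K27me3. Only distal intergenic peaks put 15.5% of the H4K8ac-only genes on the list, and 26.0% of the genes with both rested on such peaks for H4K8ac. For H3K27me3 these shares were 16.3% and 30.2%. Of the H3K27me3 peaks themselves, 31.4% of those at H3K27me3-only genes and 16.6% of those at genes with both were promoter peaks. The mean number of H3K27me3 peaks was 2.42 for H3K27me3-only genes and 3.16 for genes with both, and the mean number of H4K8ac peaks 3.54 and 3.21.

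RefSeq promoter windows matched 74.3% of the 11188 members, under the 80% that a check of base composition needs, so the comparison of whole gene sets by promoter CpG is void and its values cover the matched genes alone. In these, the mean CpG ratio was 0.609 ± 0.299 for H4K8ac-only genes (SD, n = 5453 genes), 0.494 ± 0.300 for H3K27me3-only genes (n = 1867) and 0.581 ± 0.292 for genes with both (n = 992). The H4K8ac-only mean was the higher in 6 of 6 list pairs, by 0.144 ± 0.033 (SD, exact permutation p = 0.03125, adjusted p = 0.0521).

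The 1311 genes with both marks mostly carried them apart. The nearest peaks of the marks lay a median of 24.9 kb from each other (interquartile range 6.69 to 66.4), 279 genes (21.3%) had them within 5 kb and 197 (15.0%) over 100 kb apart. In 58 genes (4.42%) they touched or overlapped. Of all peaks, 77 H4K8ac peaks (0.254%) and 74 H3K27me3 peaks (0.720%) overlapped the other mark by at least 1 bp, over 75.2 kb in all. Promoter peaks of both marks were assigned to 173 genes (13.2%). The most frequent arrangement was H3K27me3 at the promoter with H4K8ac in the gene body, in 251 genes (19.1%), and 179 genes (13.7%) had H4K8ac at the promoter with H3K27me3 in distal intergenic sequence alone. H4K8ac peaks outnumbered H3K27me3 peaks in 485 genes, the numbers were equal in 399 and H3K27me3 peaks were more in 427, but H3K27me3 covered more bases in 1070 (81.6%).

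Among protein-coding genes with both marks, the 8 that had the most bases under the lesser mark were genes of adhesion, signalling and transcription. Tenm3, a teneurin that guides synaptic wiring, had 20 H4K8ac peaks over 31447 bp and 13 H3K27me3 peaks over 61187 bp, which met at 0 bp. Elmo1, an activator of Rac signalling, had 16 over 24655 bp and 12 over 40667 bp. Tox3, a high mobility group protein, had 15 over 22051 bp and 16 over 133148 bp, and the related Tox had 16 over 22858 bp and 11 over 41934 bp. Mast4, a kinase, had 15 over 23818 bp and 9 over 82661 bp, and Mdga2, a cell-surface protein of synapses, had 19 over 23918 bp and 3 over 22733 bp. Cdh13, a cadherin, had 14 over 21638 bp and 10 over 37600 bp, and Skap2, a signalling adaptor, had 10 over 18396 bp and 2 over 27239 bp. All 8 had both marks in each of the other 5 list pairs too.

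**Figure D3:**
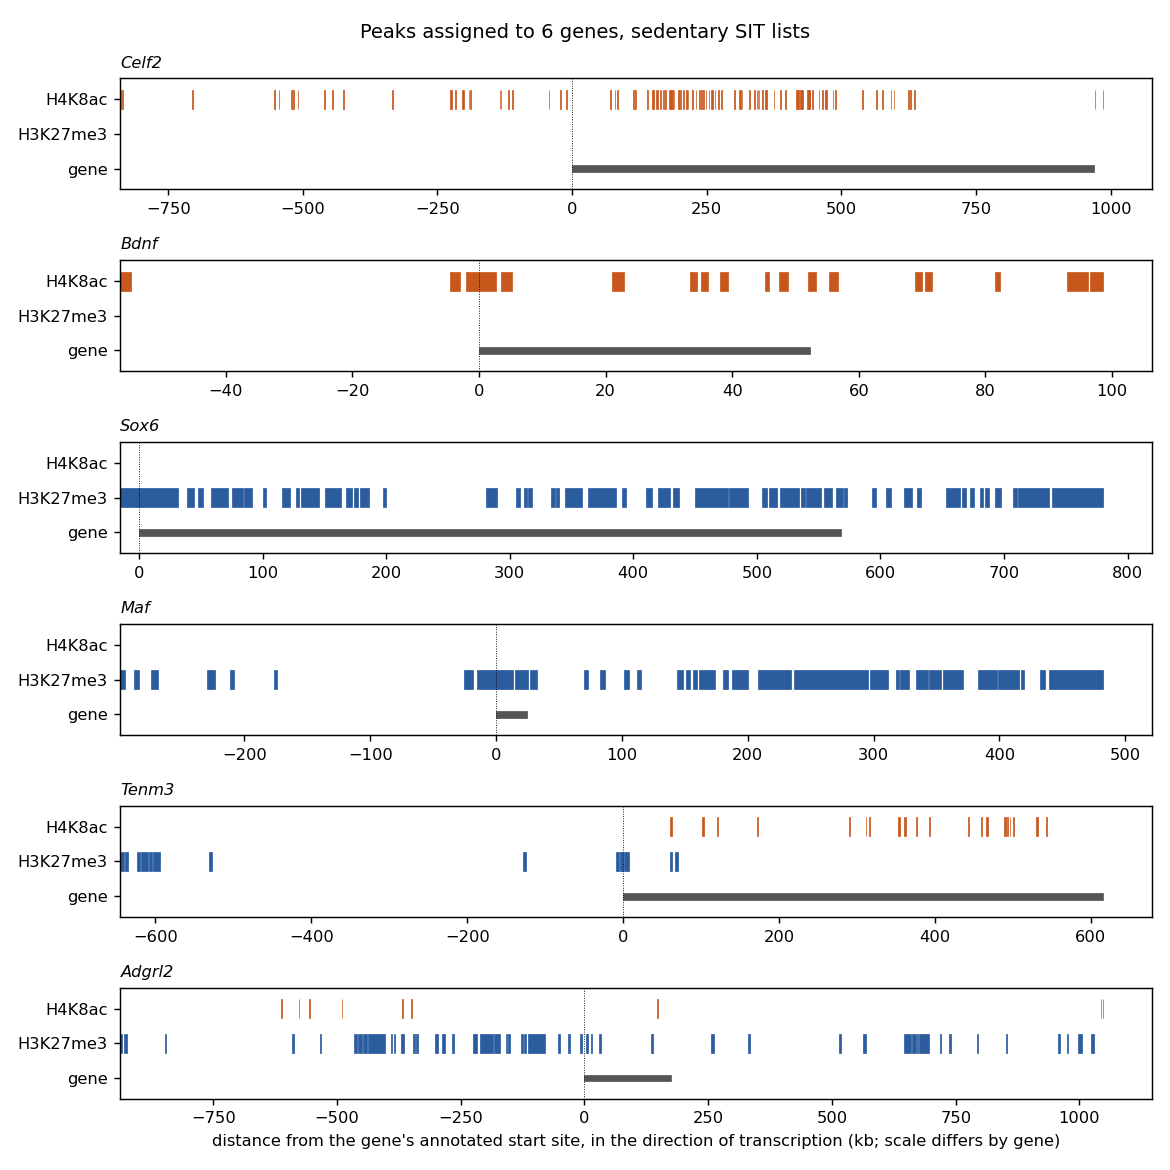
Peaks assigned to 6 genes in the sedentary SIT lists, with H4K8ac and H3K27me3 on separate rows, the annotated gene as a bar, and distance from the start site in kb (to scale within a gene, with a different scale for each gene). Celf2 and Bdnf have H4K8ac alone, Sox6 and Maf H3K27me3 alone, and Tenm3 and Adgrl2 both.

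The tissue was checked by marker genes. Of 30 genes of hippocampal excitatory neurons, 21 (70%) had H4K8ac alone, against 28.3% of all protein-coding genes, 3 (10%) had H3K27me3 alone, near the 9.71% of all genes, 4 had both and 2 neither. Among those with H4K8ac alone, Mef2c, an activity-regulated transcription factor, had 23 peaks over 40082 bp, Rbfox3, which encodes NeuN, had 16 over 22304 bp, Zbtb20, a regulator of hippocampal identity, had 14 over 26059 bp, and Bhlhe22 had 9 over 19332 bp. The 3 with H3K27me3 alone were Cux1 (15 peaks over 186975 bp) and Cux2 (12 over 77921 bp), factors of upper cortical layers, and Slc17a6 (5 over 42764 bp), the vesicular glutamate transporter VGLUT2. Slc17a7, which encodes the transporter VGLUT1, and Wfs1, a CA1 marker, had no peak of either mark. Prox1, the identity factor of dentate granule cells, had both, with 1 H4K8ac peak of 1108 bp and 14 H3K27me3 peaks over 90810 bp.

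GABAergic interneuron genes, whose cells arise mostly outside the Emx1 lineage, were mostly under H3K27me3. Of 24, 13 (54.2%) had H3K27me3 alone, against 9.71% of all protein-coding genes, 3 (12.5%) had H4K8ac alone, against 28.3%, 3 had both and 5 neither. The difference from the excitatory list was not tested. The 13 included Gad1 and Gad2, the enzymes of GABA synthesis, Lhx6, Sp8 and Sp9, factors of the interneuron lineage, and Pvalb, Vip and Calb2. Maf had 33 peaks over 357923 bp, Reln 29 over 274058 bp, Erbb4 23 over 227158 bp and Dlx5 1 of 50486 bp. Among the 3 with H4K8ac alone were Lamp5, with 8 peaks over 15068 bp, and Cck, with 3 over 5741 bp. Sst and Npy had both, and when only peaks over the gene body were counted they had H3K27me3 alone. Over the 6 list pairs, 22 to 27 of the excitatory genes had any H4K8ac and 7 to 10 any H3K27me3, whereas 5 to 9 of the interneuron genes had any H4K8ac and 16 to 19 any H3K27me3. Over all protein-coding genes, 19.9 to 41.9% had any H4K8ac and 13.5 to 24.96% any H3K27me3 in the 6 pairs. The any-H3K27me3 share of the excitatory genes, 23.3 to 33.3%, met the latter range only at its lower end. In the sedentary SIT pair the share was 23.3%, against 14.8% of all protein-coding genes.

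Genes of other cells were read against the shares of all protein-coding genes, 28.3% with H4K8ac alone and 9.71% with H3K27me3 alone. Of 16 astrocyte genes 3 had H4K8ac alone, 4 H3K27me3 alone, 2 both and 7 neither. For 15 oligodendrocyte genes the counts were 4, 4, 1 and 6, with H3K27me3 alone at Olig2 (3 peaks over 78726 bp), Olig1 (3 over 68217 bp) and Pdgfra (2 over 35728 bp), and H4K8ac alone at Mbp, the myelin basic protein gene, with 19 peaks over 37532 bp. For 15 microglial genes they were 5, 4, 0 and 6, with H4K8ac at Ptprc and P2ry12 and H3K27me3 at C1qa, Tmem119, Tyrobp and Cx3cr1, and for 12 endothelial genes 3, 3, 4 and 2. In these 4 lists H4K8ac alone was at 18.8 to 33.3% of the genes, around its share of all genes, and H3K27me3 alone at 25 to 26.7%, which is 3 or 4 genes a list. Over the 6 list pairs any H3K27me3 was assigned to 5 to 7 of the astrocyte, 5 to 8 of the oligodendrocyte, 3 to 6 of the microglial and 6 to 9 of the endothelial genes, and any H4K8ac to 3 to 10, 2 to 5, 3 to 8 and 3 to 7, ranges that overlap the any-H4K8ac shares of all genes. For any H3K27me3, all protein-coding genes ran from 13.5 to 24.96%. The astrocyte (31.25 to 43.75%), oligodendrocyte (33.3 to 53.3%) and endothelial (50 to 75%) shares lay above that range, and the microglial share (20 to 40%) overlapped it. Whether these 4 lists differ from the neuronal lists was not tested. Whether H4K8ac at glial and microglial genes came from such nuclei was not tested.

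Homeobox genes of development carried H3K27me3. Of 100 homeobox genes outside the Hox clusters, 77 had H3K27me3 alone, 16 both, 2 H4K8ac alone and 5 neither, against 9.71% of all protein-coding genes with H3K27me3 alone. Irx1, a patterning factor, had 22 peaks over 178309 bp, Nkx6-1 8 over 113391 bp, Barhl2 6 over 123416 bp and Irx6 9 over 103591 bp. Among those with both, Irx3 had 1 H4K8ac peak of 1281 bp beside 19 H3K27me3 peaks over 212272 bp, and Pax3 1 of 1174 bp beside 11 over 173100 bp. The 2 with H4K8ac alone were Pax6, which marks neural progenitors, with 1 peak of 1697 bp and Six4 with 1 of 1077 bp. By peaks over the gene body, Pax6 had H3K27me3 alone, so its entry changed with the rule of assignment. Counted by promoter peaks, 89 of the 100 had H3K27me3 alone, 1 H4K8ac alone and 1 both, against 8.33%, 17.4% and 0.748% of all protein-coding genes. Any H3K27me3 was assigned to 93 to 97 of them over the 6 list pairs and any H4K8ac to 6 to 26.

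In the Hox clusters the count depended on the assignment of each wide peak to 1 gene. Of 39 Hox genes, 5 had H3K27me3 alone (among them Hoxb13 with a peak of 64208 bp and Hoxd3 with 1 of 43210 bp) and 34 were assigned nothing. The domains of 193722, 160066 and 158177 bp covered the start sites of 9, 13 and 9 protein-coding genes but were assigned to the noncoding genes Hotair, Gm15050 and Hoxb3os. When a gene was counted by any overlap of its body with a peak, 39 of 39 Hox genes had H3K27me3 alone. Over all protein-coding genes, the start site of 1576 (7.18%) lay inside an H3K27me3 peak and 179 of these genes (11.4%) were not assigned the mark. For H4K8ac, 1656 start sites (7.55%) lay inside a peak and 118 of the genes were not assigned it.

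Other families of developmental factors and signals were read against the same shares, 9.71% of all protein-coding genes with H3K27me3 alone and 28.3% with H4K8ac alone. Of 17 T-box genes, 8 had H3K27me3 alone, 5 both, 2 H4K8ac alone and 2 neither. Tbx5, a limb and heart factor, had 7 peaks over 99511 bp, Tbx3 1 of 62559 bp and Eomes, an intermediate progenitor factor, 1 of 38726 bp, while Tbr1, a factor of glutamatergic cortical neurons, had H4K8ac alone with 5 peaks over 13442 bp. Of 44 forkhead genes, 21 had H3K27me3 alone, 7 both and 6 H4K8ac alone. Of 19 WNT ligand genes, 11 had H3K27me3 alone, 2 both and 5 H4K8ac alone. For 6 GATA genes 4 had H3K27me3 alone and none H4K8ac, and for 22 FGF genes the counts were 7 (31.8%) with H3K27me3, 6 (27.3%, near the share of all genes) with H4K8ac and 2 with both. SOX genes were mixed, with 6 of 19 under H4K8ac, 4 under H3K27me3 and 3 under both, as at Sox5, which had 9 H4K8ac peaks over 12309 bp and 15 H3K27me3 peaks over 94041 bp.

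Most activity-induced genes were assigned H4K8ac. Of 28, 22 had H4K8ac alone, 0 H3K27me3 alone, 3 both and 3 neither, against 28.3% of all protein-coding genes with H4K8ac alone. Bdnf had 17 peaks over 28725 bp, of which 5 were at promoters, the immediate-early genes Jun and Nr4a3 14 over 20104 bp and 10 over 21774 bp, and Dusp6, a phosphatase of the ERK pathway, 13 over 19687 bp. Fos and Arc each had 1 peak, of 2695 and 1353 bp, and both were distal intergenic by the annotation (these were looked up after the counts were known). Nr4a2, Egr2 and Nptx2 had both marks, with 4 H4K8ac peaks over 8016 bp and 1 H3K27me3 peak of 3085 bp at Nr4a2, and 1 of 1374 bp and 2 over 8605 bp at Egr2. Over the 6 pairs 19 to 26 of the 28 had any H4K8ac and 2 to 6 any H3K27me3. The count was lower when peaks had to lie at the gene, with 15 of 28 under H4K8ac alone and 12 under neither by promoter peaks, against 17.4% and 73.5% of all protein-coding genes, and 14 and 13 by gene bodies, against 24.9% and 64%.

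Synaptic genes were counted in 3 lists. Of 38 genes of synaptic scaffolds and adhesion 26 (68.4%) had H4K8ac alone, 2 H3K27me3 alone, 5 both and 5 neither, against 28.3% of all protein-coding genes with H4K8ac alone and 58.6% in the longest group of genes, where spans such as that of Magi2 lie. By promoter peaks 21 of the 38 had H4K8ac alone, against 17.4% of all protein-coding genes. Dlg2, which encodes PSD-93, had 38 peaks over 53662 bp and Dlgap1, a postsynaptic scaffold, 33 over 47806 bp. Cntnap2, a neurexin family member, had both marks, with 13 H4K8ac peaks over 14503 bp and 5 H3K27me3 peaks over 26026 bp. Of 17 ionotropic glutamate receptor genes 9 (52.9%) had H4K8ac alone, with 47 peaks over 71153 bp at Grik2, 32 over 58186 bp at Gria2 and 25 over 32128 bp at Gria1. The kainate receptor Grik1 was the opposite case, with 28 H3K27me3 peaks over 225791 bp and no H4K8ac. By promoter peaks 1 of the 17 had H4K8ac alone and 13 neither, and in the exercised left separate lists 5 had each mark alone. Of 31 vesicle and release genes, 19 had H4K8ac alone (13 by promoter peaks), led by the calcium sensor Syt1 with 32 peaks over 50564 bp, and Syt2 alone had H3K27me3 without H4K8ac (1 peak of 3312 bp).

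Ion channel families held genes of each kind. Over all protein-coding genes 28.3% had H4K8ac alone (17.4% by promoter peaks) and 9.71% H3K27me3 alone (8.33% by promoter peaks). Of 19 GABA-A receptor genes, 11 had H4K8ac alone (6 by promoter peaks) and 1 H3K27me3 alone. Gabra2 had 29 H4K8ac peaks over 52714 bp, Gabrb2 19 over 25513 bp and Gabrb1 17 over 29283 bp, and the exception was Gabrp, a subunit found mainly outside the brain, with 5 H3K27me3 peaks over 22508 bp. Of 92 potassium channel genes, 44 (47.8%) had H4K8ac alone, 17 (18.5%) H3K27me3 alone, 10 both and 21 neither, and by promoter peaks 25 (27.2%) and 17 (18.5%) had H4K8ac and H3K27me3 alone. Kcna4 had 49 H4K8ac peaks over 73464 bp, all of them distal intergenic around a gene of 7.86 kb, and Kcnip1, a Kv4-interacting subunit, had 16 H3K27me3 peaks over 84658 bp. Of 40 sodium and calcium channel genes 21 had H4K8ac alone, 6 H3K27me3 alone and 2 both. Of 10 CaMK genes 4 had H4K8ac alone, 2 both and 4 neither.

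Neurotrophins and their receptors split between the marks. Bdnf and the receptor genes Ntrk2 and Ntrk3 had H4K8ac alone. Ngfr, a neurotrophin receptor gene (6 peaks over 42362 bp), and Ntf5 were among the 4 with H3K27me3 alone, and Ntf3 had both. Among guidance genes, 29 of 45 semaphorin, plexin, netrin, slit and related genes (64.4%, against 28.3% of all protein-coding genes) had H4K8ac alone, 4 H3K27me3 alone and 4 both, and 13 of 22 ephrin and Eph genes (59.1%) H4K8ac alone, 2 H3K27me3 alone and 1 both. H3K27me3 alone, at 8.89% and 9.09% of these lists, was near the 9.71% of all genes. Of 91 cadherin genes, 14 (15.4%) had H4K8ac alone, 5 H3K27me3 alone, 12 both and 60 neither. Cdh4 had 3 H4K8ac peaks over 4934 bp and 20 H3K27me3 peaks over 105555 bp, whereas Cdh11 had 53 over 95708 bp and 1 of 3110 bp, and Pcdh9 51 over 83415 bp and 1 of 3096 bp. By gene bodies the cadherin counts were 48 with H4K8ac alone, 5 with H3K27me3 alone, 7 with both and 31 with neither, against 24.9%, 8.98%, 2.17% and 64% of all protein-coding genes. Of 44 collagen genes 14 (31.8%, near the 28.3% of all genes) had H4K8ac alone, 10 H3K27me3 alone and 8 both. By promoter peaks the collagen balance turned, with 6 under H4K8ac alone, 17 under H3K27me3 alone and 0 under both, against 17.4%, 8.33% and 0.748% of all genes, and any H3K27me3 was assigned to more of them than any H4K8ac in 4 of the 6 list pairs.

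The writers and readers of the marks were also read. Of 33 Polycomb group genes 9 had H4K8ac alone, 2 H3K27me3 alone (among them Jarid2, a cofactor of Polycomb repressive complex 2), 3 both and 19 neither, and the 27.3% with H4K8ac alone was near the 28.3% of all protein-coding genes. The 3 with both were Aebp2, another such cofactor, with 14 H3K27me3 peaks over 82440 bp beside 1 H4K8ac peak, Rybp with 14 over 71208 bp beside 1, and Cbx8, a reader of H3K27me3, with 1 of 11140 bp beside 1 H4K8ac peak of 3570 bp. By gene bodies none of the 33 had H3K27me3 and 8 had H4K8ac alone, and by promoter peaks none had both. Of 30 genes of histone acetylation 13 had H4K8ac alone, 1 H3K27me3 alone, 1 both and 15 neither, with 39 H4K8ac peaks over 65797 bp at the deacetylase gene Hdac9 and 2 H3K27me3 peaks over 19267 bp at the acetyltransferase gene Kat2b.

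Genes used by every cell and genes of other organs were counted against the shares of all protein-coding genes. These were 28.3% with H4K8ac alone, 9.71% with H3K27me3 alone and 56.9% with neither mark. Of 85 ribosomal protein genes 18 had H4K8ac alone, 3 H3K27me3 alone, 3 both and 61 (71.8%) neither. Of 48 proteasome genes the counts were 13, 6, 1 and 28, and of 37 NADH dehydrogenase genes 13, 1, 2 and 21, so the shares with neither, 58.3% and 56.8%, were near that of all genes. These shares varied with the pair. Over the 6 list pairs any H4K8ac was assigned to 11.8 to 49.4% of the ribosomal protein, 16.7 to 50% of the proteasome and 18.9 to 64.9% of the NADH dehydrogenase genes. For all protein-coding genes the range was 19.9 to 41.9%. Of 1092 olfactory receptor genes 21 had H4K8ac alone, 74 H3K27me3 alone, 1 both and 996 (91.2%) neither, and of 326 vomeronasal receptor genes 5, 24, 0 and 297. In the same order the counts were 10, 6, 2 and 31 for 49 keratin genes, 1, 3, 0 and 38 for 42 defensin genes, and 10, 11, 4 and 68 for 93 cytochrome P450 genes. For 365 zinc finger genes of the Zfp series they were 102, 32, 36 and 195, and the 9.86% with both, against 5.06% of all protein-coding genes, was 7 genes (1.92%, against 2.17%) by gene bodies. Of 29 imprinted genes 7 (24.1%, near the share of all genes) had H4K8ac alone, 9 (31.0%) H3K27me3 alone, 1 both and 12 neither. By promoter peaks 1 (3.45%) had H4K8ac alone and 6 (20.7%) H3K27me3 alone, against 17.4% and 8.33% of all protein-coding genes. The 10 genes that the study itself named for these marks were chosen by it on these samples and are no independent evidence, with 4 under H4K8ac alone, 2 under H3K27me3 alone, 1 under both and 3 under neither.

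**Figure D4:**
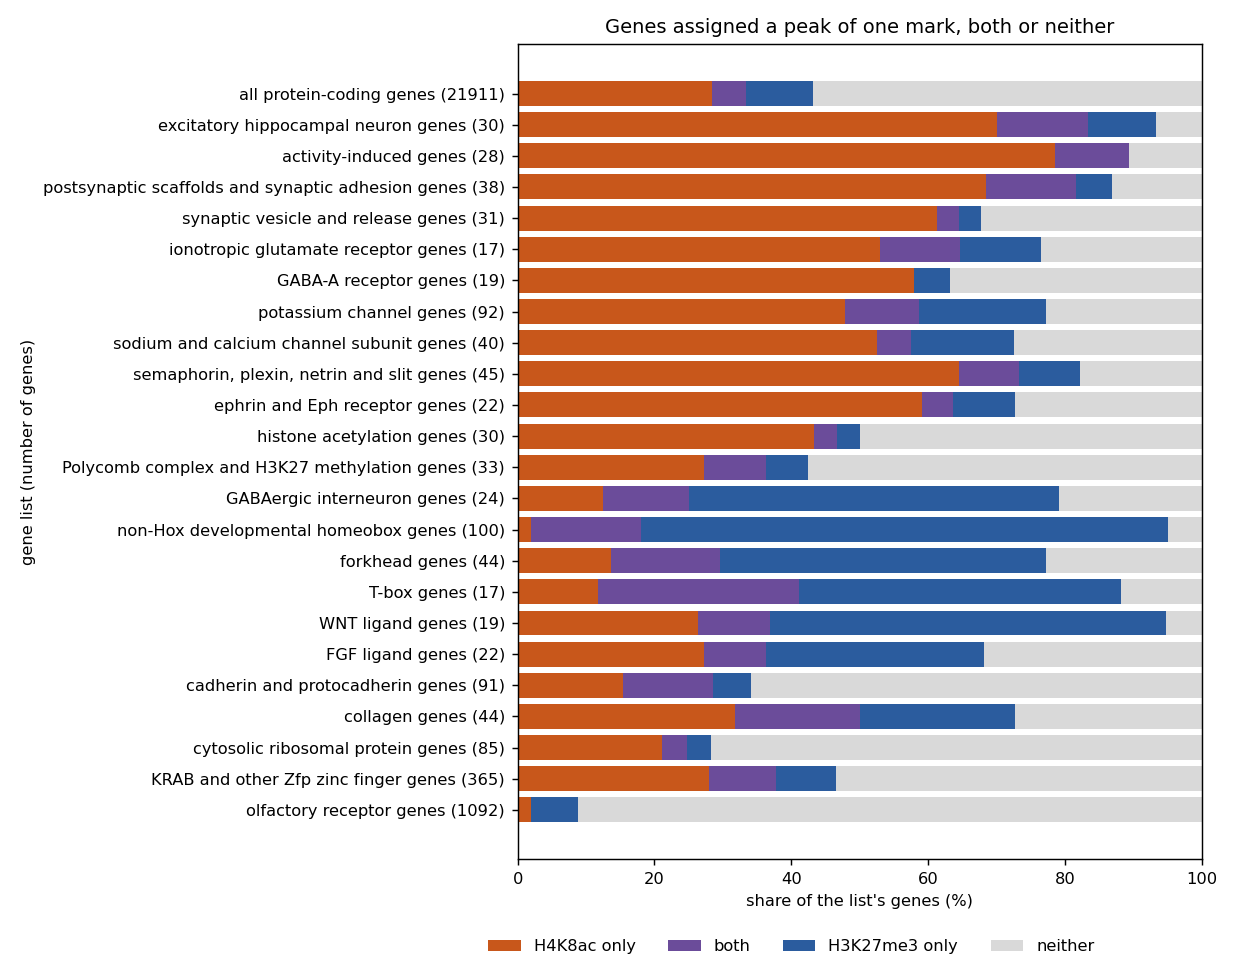
Share of the members of 24 gene lists (percent) with H4K8ac alone, H3K27me3 alone, both or neither in the sedentary SIT lists. Activity-induced genes (22 of 28 with H4K8ac alone) and homeobox genes outside the Hox clusters (77 of 100 with H3K27me3 alone) lie at opposite ends.

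How far the division held in other mice was read from the other 5 list pairs. Of the H3K27me3-only genes 1334 (53.0%) had that status in all 5 others, of the H4K8ac-only genes 2334 (31.7%) and of the genes with both 310 (23.6%). In no other pair was the status shared by 37 (1.47%), 653 (8.87%) and 96 (7.32%) of them, respectively. The lists differed in length, which limits such counts: the exercised left and right separate H4K8ac lists held 12168 and 13715 peaks, against 30358 here, and 43.7% and 42.3% of the H4K8ac-only genes had neither mark in those pairs. A change from H4K8ac alone to H3K27me3 alone was seen for 1.07 to 4.24% of the H4K8ac-only genes in a given pair, and the opposite change for 0.198 to 1.31% of the H3K27me3-only genes. Protein-coding genes with H4K8ac alone in all 6 pairs had a median span of 54.0 kb, against 30.8 kb for the other H4K8ac-only genes. For H3K27me3 alone the medians were 16.7 and 21.0 kb, and for both 82.2 and 53.4 kb. The number of genes with both marks differed widely between the pairs, from 763 (8.94% of the genes in the pair) in the exercised right separate lists to 2851 (19.9%) in the exercised SIT lists, and the 1311 genes (11.7%) of the sedentary SIT lists lay inside that range.

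**Figure D5:**
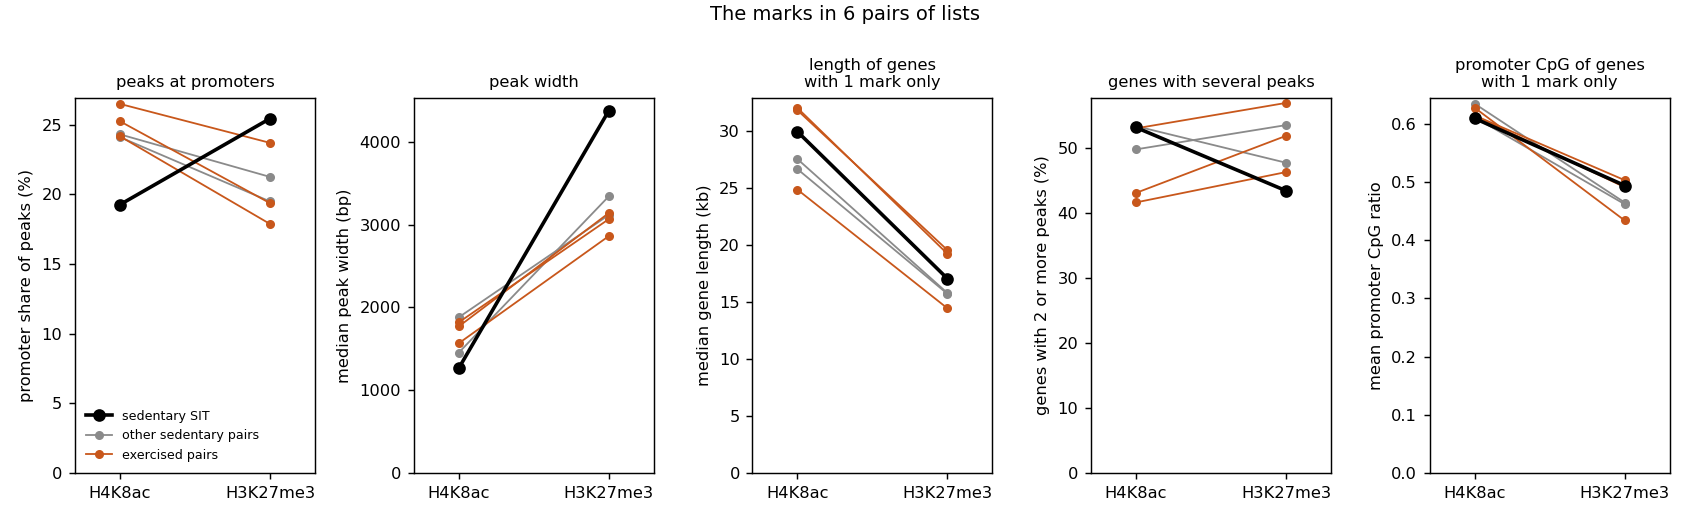
Values of 5 measures in the H4K8ac and H3K27me3 lists of each of the 6 pairs, with a line joining the lists of a pair (black, sedentary SIT, grey, other sedentary lists, orange, exercised lists). Peak width, gene span and promoter CpG run in 1 direction in 6 of 6 pairs, whereas the promoter share of the sedentary SIT pair, 19.3% against 25.4%, runs against the other 5.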

How the data were processed

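CUT&RUN was performed by the authors on tagged nuclei of mouse hippocampus with antibodies to H4K8ac, H3K27me3 and IgG. The authors mapped reads to mm10 and called peaks, and per the submitters' processing notes and the study's methods FastQC 0.11.9, Bowtie2 2.4.1, SEACR (stringent, 0.01) and ChIPseeker 1.8.6 were used. The deposited files used here are annotated peak lists, 1 for each mark, condition and isolation. Their values are positions, widths and distances in bp and an annotation class, with no signal, count or p-value. The study's reporting summary also names signal tracks and raw reads, which were not analysed here. Each list is a single file for a group of samples. The authors excluded some exercised H4K8ac samples, mostly of the separate isolations, whose false discovery rate was too high. How the remaining samples were combined into a list is not given in the sources used here. The study states a minimum sequencing depth for its libraries, but the depth behind each list is unknown. IgG samples were not analysed here.

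Every peak with an MGI symbol was counted for that gene, and a gene had both marks when both lists named it. Gene spans came from the annotation of the files' build (of 16994 symbols, 16624 matched by name, 365 by transcript and 5 not at all). Promoter windows came from RefSeq on GRCm38.p6, and the CpG ratio is observed over expected CG. The members and the 40 gene lists were chosen with earlier results of these data known. Genes are named by rule: the 4 members of each list and status with the largest total width, the 5 protein-coding genes with the most peaks and the 5 with the widest peak of each mark, and the 8 genes with both marks with the largest smaller width; a few others are named to fill out a count and were chosen after their values were seen. Sequences are promoters of list genes inside the widest peaks of 1 mark, and every gene with a promoter inside peaks of both. Values of some list members are not reported here.

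For each of 5 measures, the signs of the 6 list pair differences were permuted exactly (two-sided, smallest p 0.03125), and p-values were adjusted by Benjamini-Hochberg, with a threshold of 0.05. The functions were checked on simulated data. Alternatives were the promoter peaks alone, distal peaks left out, the widest 50%, equal numbers of peaks, 2 or more peaks, gene body overlap and protein-coding genes alone. Others were peaks within 1 kb merged, share of covered bases, 3 or more peaks, listed transcript length, GC percent, and chromosomes 1 to 19 and X. The 3 sedentary pairs alone and leaving out each pair were also run. Python 3.11.15, numpy 2.4.6, pandas 2.3.3 and matplotlib 3.10.9 were used.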

Additional observations from a re-analysis of the deposited data

Results flagged for a closer look

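The difference in promoter share between H4K8ac and H3K27me3 in the sedentary SIT lists, -6.18 percentage points, stood apart from the other 5 list pairs, which lay between 2.80 and 6.29 points. It was the value farthest from its neighbours by Dixon's criterion for 6 values at the 95% level, which was applied to 5 measures, and chance marks about 1 group in 20. The sedentary SIT lists also held the narrowest H4K8ac peaks (median 1265 bp, against 1453 to 1880 bp in the others) and the widest H3K27me3 peaks (4375 bp, against 2861 to 3341 bp), and the part of width in the promoter share was not tested.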

How the results depend on the processing

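No paired analysis was possible because the lists do not separate mice, so a replicate number cannot enter as a block, and the pairs tested are whole lists of 1 condition and isolation. The lower width of H4K8ac peaks and the longer span of H4K8ac-only genes kept their direction under every alternative run, as did the difference in promoter CpG over the matched genes, whose comparison is void. With 6 pairs of 1 direction p is the smallest possible under each, so it does not tell them apart. Leaving out 1 pair gave -1.09 to -0.876, 0.758 to 0.779 (both log2) and 0.134 to 0.150, and no p can be under 0.0625 with 5 pairs or 0.25 with 3, so those say nothing of the call. The mean difference in promoter share turned from 2.74 to -3.67 points in the widest 50% of peaks and to -7.10 in covered bases (0.497 over the 3 sedentary pairs, 2.03 to 4.53 on leaving out a pair). The difference in the share of genes with 2 or more peaks, -0.955 points, became 0.853 in the widest 50%, 3.88 over the 3 sedentary pairs and -4.94 with equal numbers of peaks, where it passed the threshold (exact permutation, adjusted p = 0.0391). Leaving out a pair gave -3.09 to 0.610, the latter without the exercised left separate pair.

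The 7358 H4K8ac-only genes became 4270 by promoter peaks alone, 3917 with equal numbers of peaks and 4264 with 2 or more peaks. The 2519 H3K27me3-only genes became 1319 with 2 or more peaks, but rose to 3174 with equal numbers and to 3752 by gene body overlap. With equal numbers of peaks the split was thus 3917 to 3174, against 7358 to 2519. The 1311 genes with both became 173 by promoter peaks alone, 656 with equal numbers and 344 with 2 or more peaks. They became 697 without distal peaks, 518 in the widest 50% and 604 by gene body overlap. Why each count moved was not tested. Depth is unknown and limits what an unlisted gene means: no peak was called, which does not show that the mark was absent.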

Other observations

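The sex chromosomes held few peaks of either mark in these male mice. Of 948 protein-coding genes on the X chromosome, 8.44% had H4K8ac alone, 2.00% H3K27me3 alone and 1 gene, Tsc22d3 (a glucocorticoid-induced gene), both. The autosomal H4K8ac-only shares ran from 15.8% on chromosome 7 upwards to 42.7%. The Y chromosome held a single peak, of H3K27me3, assigned to Kdm5d.

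Some genes had opposite marks in other lists. Of the H4K8ac-only genes, 517 (7.03%) had H3K27me3 alone in at least 1 of the other 5 pairs, and of the H3K27me3-only genes 67 (2.66%) had H4K8ac alone in at least 1. Myh2, a skeletal muscle myosin, and 4930539C22Rik had H3K27me3 alone in all 5 others, and each rested here on a single H4K8ac peak, of 1293 and 1043 bp. They are named because of this pattern.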
